A study of Mus musculus with 6 samples.

Results

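The glycolysis and hypoxia response genes are a set of 34 genes that cover glucose entry, each enzyme step of glycolysis, the handling of pyruvate and lactate, the oxygen sensors and further targets of the hypoxia-inducible factor. Members were taken by gene name from the array, on which all 34 were found, among 50090 gene names in all. They were measured by 55 of the 61307 probes, and 14 of them had more than 1 probe. A gene was counted on its brightest probe, the probe with the highest mean log2 signal over the 6 arrays.

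Glycolysis splits glucose into pyruvate in the cytosol, and lactate dehydrogenase turns pyruvate into lactate so that the pathway can run on without oxygen. Hypoxia-inducible factor 1 (HIF-1) is held low by prolyl hydroxylases when oxygen is present, and when oxygen falls it binds hypoxia response elements and switches on most genes of the pathway. Cultured fibroblasts run glycolysis at a high rate also in air.

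The cells were NIH3T3, an immortalized mouse fibroblast line, infected with a retrovirus and selected in Geneticin. GFP cells expressed GFP alone and served as the control, while LT7 (long cells) and ST7 (small cells) both overexpressed SIRT7, a nuclear sirtuin, fused to GFP. Each group was expanded from single-cell clones, ST7 from compact colonies that appeared at confluence, so that a group is limited by the clones it came from. Per the paper, the 2 arrays of a group held RNA from different passages, and p-values measure the spread between passages, not between clones. LT7 replicate 1 was read in a scan of its own, and the other 5 arrays shared a scan.

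The ST7 arrays stood apart from the others as a whole. On them the 75th percentile lay at a signal of 16.3 and 17.1, and on the GFP and LT7 arrays it lay between 317 and 384. The Sirt7 gene itself read 3125 and 2480 on the GFP arrays, 3633 and 2782 on the LT7 arrays and 2.85 and 3.28 on the ST7 arrays, the last pair failing the scanner software's call of a signal well above background. In LT7 Sirt7 changed by 0.29 (SE 0.21, adjusted p = 0.47, limma), so its probe did not show the overexpression there. LT7 and ST7 are therefore used for the arrays so labelled. Of 12 fibroblast markers, 12 were well above background on both GFP arrays and both LT7 arrays and 4 on both ST7 arrays. The other 8 passed on neither ST7 array, among them Dcn, Lum, Thy1 and Col3a1 at 2.82 to 5.79. After each array's 75th percentile was subtracted, limma called 11 of the 12 lower than GFP in ST7 and 1 higher. The shares over all genes were 18.2% and 73.1%. The summed signal of the 12 markers was 398037 to 433449 on the GFP and LT7 arrays and 15069 and 16608 on the ST7 arrays. Of 8 epithelial markers 4 passed the call of detection on both ST7 arrays, with a summed signal of 2021 to 2215 in ST7 against 115 to 194 in GFP and LT7. The markers of blood cells, endothelium, fat and muscle passed it there for 0 of 15 genes. Among 15 genes of general cell upkeep, Hprt1, B2m and Gusb failed this call on each ST7 array, and the other 12 passed it on both. By immunoblot the paper found no significant difference in SIRT7 between LT7 and ST7. It also reports lower mesenchymal and higher epithelial gene expression in ST7. Sirt7, Hprt1, B2m and Gusb were at background on arrays labelled as a line made from mouse NIH3T3 cells, and the cause was not tested. Each ST7 value below thus holds for the RNA on those arrays, whose origin, mouse cells included, was not tested. The part of these array differences in the members' values was not tested.

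In LT7 cells, the glycolysis and hypoxia genes stayed close to GFP and none of the 34 passed the test. The log2 change, taken after each array's 75th percentile was subtracted, lay between -0.76 for Adm and 0.90 for Car12, which was not well above background in these groups, and 19 of 34 members had a 95% interval that lay wholly between -1 and 1. At an adjusted p under 0.05, limma called 0 members, against 0.18% of all genes (0.0499% higher and 0.13% lower). At an unadjusted p under 0.05 it counted 5 members (14.7%), against 27.3% of all genes and 7.41% of the 21015 genes well above background on all GFP and LT7 arrays. The fold rule of the methods likewise called 0 members, against 3.07% of genes up and 3.11% down. Among the 21015 detected genes these shares were 1.51% and 1.58%. Both LT7 arrays lay above both GFP arrays for 12 members (35.3%), against 38% of all genes, and below for 6 (17.6%), against 14.8%. Of the 31 members detected on all GFP and LT7 arrays, 11 (35.5%) lay above, against 22.4% of genes so detected. Below lay 6 of the 31 (19.4%), against 16.1%. The median change of the members was 0.10, beside 0.17 over all genes and 0.03 over the 21015 detected genes, and without scaling these medians were 0.00 for the members and 0.07 for all genes. Of the 31 members well above background on all GFP and LT7 arrays, 5 (16.1%) had an unadjusted p under 0.05. This share was above the 7.41% of genes so detected and below the 27.3% of all genes.

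In ST7 cells, the brightest probe of 20 of the 34 genes failed the call of a signal well above background on each array, and that of 13 genes passed it on both. At the brightest probe, signal was lost at Slc2a1, Hk1, Hk2, Gpi1, Tpi1, Pkm2, Hif1a and the pyruvate dehydrogenase kinases, and it was kept at Gapdh, Pgk1, Pgam1, Aldoa and Ldha. The ST7 arrays entered the choice of the brightest probe, which favours a probe with signal there where probes of a gene differ. For Ldha, Pgk1 and Gapdh the chosen probe was dimmer in GFP, and brighter in ST7, than the other probes of the gene. That these genes kept signal, and the calls of Gapdh and Ldha as higher, thus hold for the chosen probe alone. After the percentile shift limma called 6 members higher (17.6%), against 73.1% of all genes, and 23 lower (67.6%), against 18.2%. Of the 31 members well above background on all GFP and LT7 arrays, 4 were called higher (12.9%), against 40.6% of all genes so detected, and 23 lower (74.2%), against 43.2%. The count of calls in all, 29 members or 85.3%, was near the 91.3% of all genes. These directions are relative to the 75th percentile, which was far lower on the ST7 arrays. For probes lost in ST7 the direction depended on how bright they were in GFP. The share of member probes kept on both ST7 arrays was 38.8%, against 41.2% of all probes detected on all GFP and LT7 arrays. The part of brightness in the counts of lower and higher members was not tested. The median change of the members was -2.89 with it, -4.83 with the percentile of those probes alone that all 6 arrays detected and -7.29 without scaling, and the median of all genes moved from 3.87 to 1.93 and -0.53 in the same settings. Over the 21015 genes detected in GFP and LT7 the medians were -0.17, -2.11 and -4.57, nearer to those of the members. The members' median was below both of these under each scaling tried. In bulk RNA, fewer cells with a transcript and less of it per cell cannot be told apart.

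**Figure D1:**
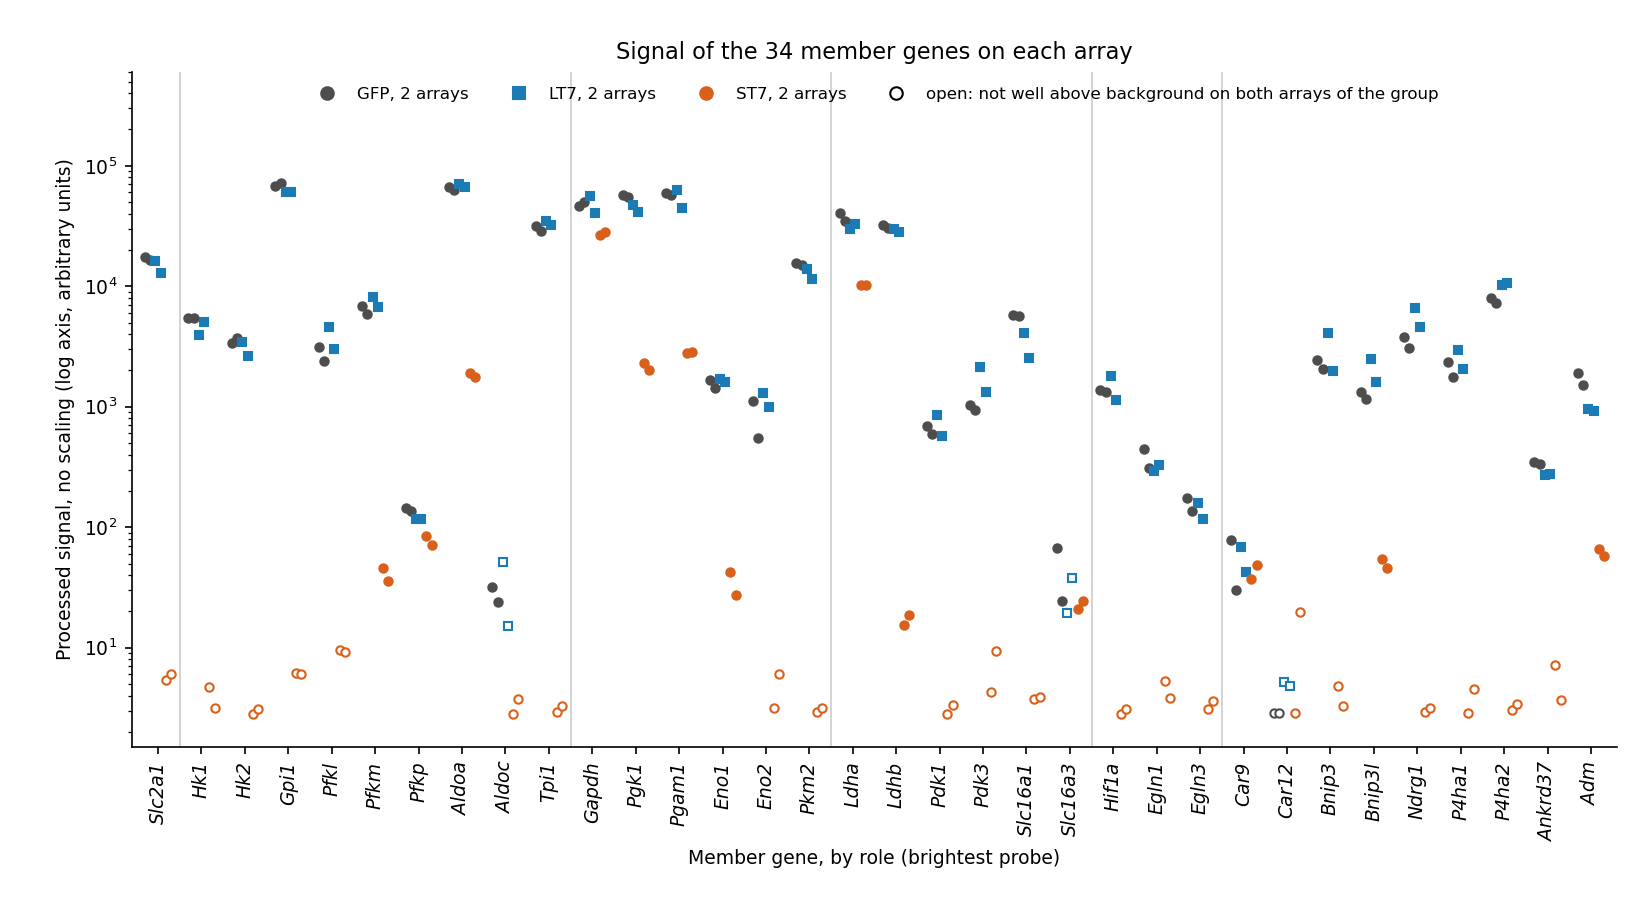
Processed signal of the 34 member genes at the brightest probe (log axis, arbitrary units, no scaling), ordered by role, with 1 point per array (n = 2 for GFP, LT7 and ST7). Open points mark a group in which the probe was not well above background on both arrays; GFP and LT7 points lie together, while 13 of the 34 genes have filled ST7 points.

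Slc2a1 (NM_011400), the glucose transporter of most cultured cells, read 17468 and 16457 on the GFP arrays, 16069 and 12827 on the LT7 arrays and 5.40 and 6.11 on the ST7 arrays. LT7 overlapped GFP once the percentile was subtracted, and its log2 change was -0.14 (SE 0.21, limma adjusted p = 0.75), and ST7 lay far below both, at least 99.6-fold lower than GFP (adjusted p = 1.7e-05, limma). Such a lower limit is given where a probe was at background on both arrays of the dimmer group, in which each array then enters with its dimmest well-detected probe, or with the probe itself if that is brighter. A limit against a saturated group uses the saturated signal. The probe of Slc2a1 has a stop codon in each of its 3 reading frames, marked in capitals in the 23 bases shown here.
Slc2a1, probe bases 32 to 54: TAActttaccTAAgcagataTAA

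The first steps of glycolysis spend ATP to trap and split glucose. Hk2, the hexokinase induced by HIF-1, read 3386 and 3691 on the GFP arrays, 3465 and 2641 on the LT7 arrays and 2.82 and 3.09 on the ST7 arrays, and the ST7 level was below GFP by at least 21.6-fold (adjusted p = 1.7e-05, limma). Gpi1, which turns glucose 6-phosphate into fructose 6-phosphate, was saturated on both GFP arrays at 68234 and 71349, read 60300 and 60371 on the LT7 arrays and 6.20 and 6.11 on the ST7 arrays. In ST7 it was at least 410-fold lower than GFP (adjusted p = 1.7e-05, limma), the largest such limit among the 34 brightest probes. Tpi1, which interconverts the triose phosphates, read 31917 and 28635 on the GFP arrays, 35085 and 31982 on the LT7 arrays and 2.95 and 3.26 on the ST7 arrays, at least 185-fold lower in ST7 (adjusted p = 1.7e-05, limma). These 3 enzymes were bright on every GFP and LT7 array and were not well above background in ST7.

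Aldoa, the muscle-type aldolase that most cells use, was saturated on all GFP and LT7 arrays, at 63170 to 70910, and was at 1909 and 1764 in ST7. In ST7 it was at least 1.68-fold lower than GFP relative to the 75th percentile (adjusted p = 0.015, limma), and no fold can be given for LT7. Pfkp, the platelet-type phosphofructokinase, read 145 and 136 on the GFP arrays, 118 and 116 on the LT7 arrays and 84.5 and 70.6 on the ST7 arrays. Its ST7 signals were below those of GFP, yet its change was 3.54 after the shift (SE 0.22, adjusted p = 3.6e-05, limma), 1.60 with the percentile over commonly detected probes and -0.86 without scaling. The liver-type Pfkl was not well above background in ST7, and the muscle-type Pfkm gave 6895 and 5904 in GFP and 46.2 and 35.5 in ST7, 7.46-fold lower after the shift (adjusted p = 0.00011, limma). The 3 phosphofructokinases thus lay on both sides of 0 in ST7 after the shift. Of the 9 first-step genes 7 were called lower in ST7 and 1 higher, and in LT7 their changes ran from -0.19 for Hk1 to 0.55 for Pfkl with no call. Aldoc, the brain-type aldolase, was dim, with 31.7 and 24.1 on the GFP arrays, and passed the call of detection on 1 LT7 array and on 0 ST7 arrays.

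The pay-off steps yield ATP and NADH. Gapdh, the dehydrogenase often used as a loading control, read 45919 and 49908 on the GFP arrays, 56091 and 40220 on the LT7 arrays and 26867 and 28049 on the ST7 arrays at its brightest probe. LT7 overlapped GFP (log2 change 0.09, SE 0.25, adjusted p = 0.88, limma), and the ST7 arrays lay below them in signal, with a change of 3.60 after the shift (SE 0.25, adjusted p = 5.4e-05, limma) and of -0.80 without scaling. Pgk1, which makes the first ATP of the pathway, read 57281 and 54930 on the GFP arrays, 47368 and 41580 on the LT7 arrays and 2298 and 2002 on the ST7 arrays. In ST7 its change was -0.31 (SE 0.21, limma adjusted p = 0.21) after the shift and -4.71 without scaling. Pgam1 was much the same, at 59524 and 57634 in GFP and 2787 and 2864 in ST7. Eno1, the common enolase, read 1652 and 1429 on the GFP arrays, 1712 and 1612 on the LT7 arrays and 42.2 and 27.3 on the ST7 arrays, 2.14-fold lower in ST7 after the shift (adjusted p = 0.013, limma). Pkm2, the array's name for the pyruvate kinase gene Pkm, read 15538 and 15067 on the GFP arrays, 13839 and 11587 on the LT7 arrays and 2.93 and 3.18 on the ST7 arrays, at least 93.5-fold lower (adjusted p = 1.7e-05, limma). Eno2, the neuronal enolase, was not well above background in ST7, and in LT7 its 2 probes changed by 0.63 and 0.69 without passing the test. Of these 6 genes, 3 were called lower in ST7 and 1 higher.

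At the exit of the pathway, Ldha, which makes lactate from pyruvate, read 40829 and 34661 on the GFP arrays, 29996 and 32926 on the LT7 arrays and 10308 and 10259 on the ST7 arrays. In LT7 it changed by -0.16 (SE 0.20, adjusted p = 0.70, limma), with both arrays below both GFP arrays by little. In ST7 it changed by 2.53 after the shift (SE 0.20, adjusted p = 9.7e-05, limma), by 0.59 with the percentile over commonly detected probes and by -1.87 without scaling. Ldhb, the partner subunit that favours the reverse reaction, fell 87.1-fold in ST7 relative to the 75th percentile, from 32005 and 30187 in GFP to 15.3 and 18.7 (adjusted p = 1.7e-05, limma). Ldhb and the brightest Ldha probe had opposite signs in ST7 after the shift and the same sign without it, while the second Ldha probe, described below, had the sign of Ldhb in both.

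Pdk1 and Pdk3 encode kinases that switch off pyruvate dehydrogenase and so keep pyruvate out of the mitochondria. Pdk1 read 691 and 593 on the GFP arrays, 862 and 576 on the LT7 arrays and 2.82 and 3.33 on the ST7 arrays. Pdk3 read 1037 and 933 on the GFP arrays, 2135 and 1314 on the LT7 arrays and 4.26 and 9.40 on the ST7 arrays. Both LT7 arrays lay above both GFP arrays for Pdk3, and its log2 change was 0.87 (SE 0.42, limma adjusted p = 0.28), while Pdk1 overlapped. The difference at Pdk3 was 0.57 without LT7 replicate 1, the array scanned alone, and 1.17 without LT7 replicate 2. Slc16a1, a lactate and pyruvate carrier, read 5785 and 5715 on the GFP arrays, 4065 and 2553 on the LT7 arrays and 3.78 and 3.93 on the ST7 arrays. Both LT7 arrays lay below GFP, with a change of -0.74 (95% interval -1.41 to -0.06, adjusted p = 0.15, limma), which was -1.02 without LT7 replicate 1 and -0.45 without LT7 replicate 2. Slc16a3, the lactate exporter of glycolytic cells, was dim, at 67.8 and 24.7 on the GFP arrays, 19.5 and 37.6 on the LT7 arrays and 20.9 and 24.2 on the ST7 arrays. The ST7 signals lay within the LT7 range and below both GFP arrays, just below replicate 2, and the shift gave ST7 a change of 3.54 (SE 0.53, adjusted p = 0.0014, limma), which was -0.86 without scaling.

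Hif1a, the oxygen-regulated subunit of HIF-1, read 1368 and 1326 on the GFP arrays, 1815 and 1133 on the LT7 arrays and 2.83 and 3.13 on the ST7 arrays. LT7 overlapped GFP, with a change of 0.19 (SE 0.27, adjusted p = 0.74, limma), and was -0.10 without LT7 replicate 1. ST7 was at least 8.23-fold lower than GFP (adjusted p = 3.3e-05, limma). HIF-1 is regulated mostly at the level of its protein, which these arrays do not measure. Egln3, a prolyl hydroxylase that HIF-1 itself induces, read 175 and 136 on the GFP arrays, 157 and 118 on the LT7 arrays and 3.07 and 3.63 on the ST7 arrays, and Egln1, the main oxygen sensor, read 448 and 311 on the GFP arrays, 291 and 327 on the LT7 arrays and 5.26 and 3.83 on the ST7 arrays. Neither hydroxylase passed the test in LT7. All 3 genes of oxygen sensing were called lower in ST7, where each was at background, and for Egln3 the signal in GFP was too low to give a fold.

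None of the other hypoxia targets, 9 genes, passed the test in LT7, though Bnip3l, Ndrg1 and Adm were among the detected members with the largest changes. Car9, a carbonic anhydrase of the cell surface that is a classic hypoxia marker, read 78.2 and 29.9 on the GFP arrays, 68.8 and 42.4 on the LT7 arrays and 37.3 and 48.9 on the ST7 arrays. The 3 groups overlapped in signal, and the shift gave ST7 a change of 4.22 (SE 0.45, adjusted p = 0.00033, limma) that was -0.18 without scaling. Its relative Car12 was at background on every GFP and LT7 array and passed the call of detection on ST7 replicate 2 alone, at 19.7. It was called higher in ST7, with a change of 5.79 after the shift (SE 0.86, adjusted p = 0.0013, limma) and of 1.39 without scaling, with 1 of 2 ST7 arrays above background. ST7 replicate 1 read 2.88, beside 2.86 and 2.88 in GFP, so no fold or lower limit is given. Bnip3, a mitophagy receptor, read 2425 and 2054 on the GFP arrays, 4110 and 1997 on the LT7 arrays and 4.84 and 3.31 on the ST7 arrays, with LT7 replicate 1 above and replicate 2 below both GFP arrays. Bnip3l, a second receptor of this kind, read 1318 and 1170 on the GFP arrays, 2492 and 1604 on the LT7 arrays and 54.7 and 46.2 on the ST7 arrays. Both LT7 arrays lay above GFP, with a change of 0.79 (SE 0.27, adjusted p = 0.13, limma), which was 0.52 without LT7 replicate 1 and 1.05 without LT7 replicate 2.

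Ndrg1, a differentiation and stress gene that hypoxia induces, read 3781 and 3061 on the GFP arrays, 6595 and 4573 on the LT7 arrays and 2.90 and 3.14 on the ST7 arrays. In LT7 its log2 change was 0.79 (95% interval 0.21 to 1.37, adjusted p = 0.10, limma), which was 0.58 without LT7 replicate 1 and 1.00 without LT7 replicate 2. P4ha1 and P4ha2 encode catalytic subunits of collagen prolyl hydroxylase. P4ha1 changed by 0.37 in LT7 (adjusted p = 0.51, limma) and was at least 12.5-fold lower than GFP in ST7. P4ha2 read 7984 and 7242 on the GFP arrays, 10172 and 10580 on the LT7 arrays and 3.02 and 3.43 on the ST7 arrays, where it was at least 46.5-fold lower than GFP (adjusted p = 1.7e-05, limma). Its change in LT7 was 0.55 (SE 0.20, adjusted p = 0.15, limma). With scaling on the reference genes it was 0.59 (adjusted p = 0.035, limma), the only call of a member in LT7 under any setting run, in a setting that called 19.3% of all probes. Adm, which encodes the vasodilator peptide adrenomedullin, read 1922 and 1510 on the GFP arrays, 962 and 921 on the LT7 arrays and 65.6 and 57.6 on the ST7 arrays. Both LT7 arrays lay below both GFP arrays, with a change of -0.76 (95% interval -1.28 to -0.24, adjusted p = 0.10, limma), which was -0.74 without LT7 replicate 1. Ankrd37, an ankyrin repeat gene that hypoxia induces, changed by -0.22 in LT7 (adjusted p = 0.79, limma) and was at least 2.08-fold lower than GFP in ST7. Of the 9 genes in this group 7 had a change above 0 in LT7 and 2, Adm and Ankrd37, one below.

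**Figure D2:**
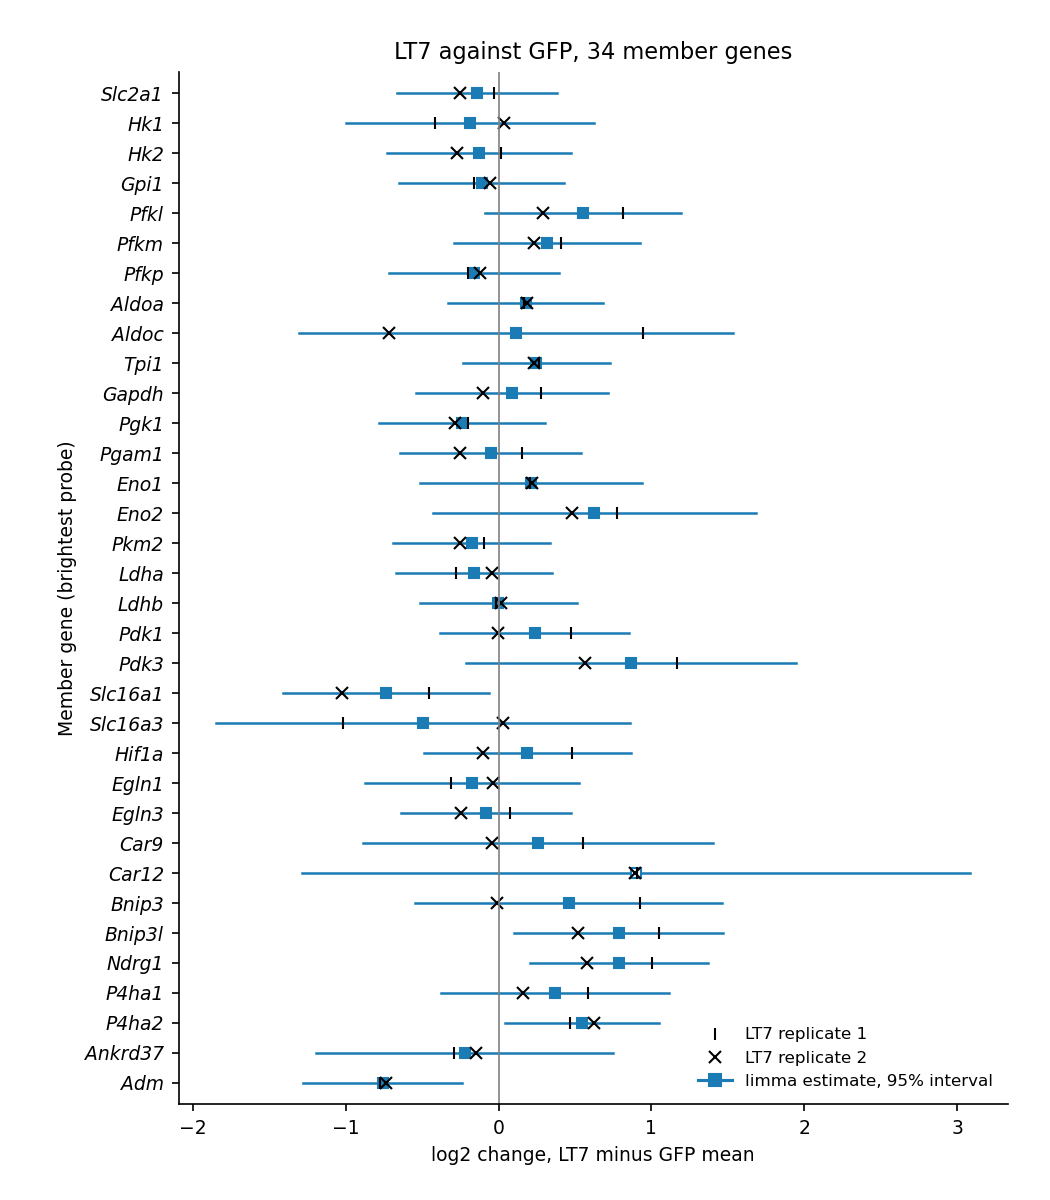
Log2 change of each member gene in LT7 against the GFP mean after the 75th percentile shift. Squares and lines are the limma estimates and 95% intervals (2 arrays per group, open for Car12, which neither group detected on both arrays), and black marks are the LT7 arrays; estimates run from -0.76 for Adm to 0.90 for Car12, and LT7 replicate 1 lies above replicate 2 for Pdk3, Bnip3, Bnip3l and Ndrg1.

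The wider pathway was followed in 62 further genes of glycolysis, its side branches and the HIF response, of which 60 were on the array. In LT7 limma called 1 of the 60 lower, against 0.13% of all genes, and 0 higher, against 0.0499%. An unadjusted p under 0.05 was found for 6 of the 60, against 27.3% of all genes. Among the 21015 genes detected on all GFP and LT7 arrays that share was 7.41%. The called gene was Stc1, which encodes the hormone stanniocalcin 1, a HIF-1 target, at 434 and 306 in GFP and 46.1 and 30.4 in LT7, 9.10-fold lower (log2 change -3.19, SE 0.25, adjusted p = 0.039, limma). The call was lost without GFP replicate 1 (-3.06, adjusted p = 0.27, limma), without GFP replicate 2 (-3.31, adjusted p = 0.13), without either ST7 array (adjusted p = 0.095) and with the replicate block (adjusted p = 0.10). It passed in 8 of 18 settings, and its adjusted p reached 0.50 with spike-in scaling. Hmox1, the haem-degrading enzyme, was next, with a change of -1.57 (SE 1.04, adjusted p = 0.42, limma), but LT7 replicate 1 was at 463 and replicate 2 at 4083, beside 4096 and 4692 in GFP. Stc2, a second stanniocalcin, followed at -0.63 (adjusted p = 0.16, limma). The highest changes among genes detected on both arrays of GFP or LT7 were at Kdm4b, with 0.76, Kdm3a, with 0.70, and Ddit4, with 0.64, which encode a pair of histone demethylases and an inhibitor of mTOR signalling, and none of them passed the test. On LT7 replicate 2 Kdm3a and Ddit4 read 795 and 4341, beside 692 to 935 and 4318 to 4554 on the GFP arrays.

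In ST7, 28 of the 60 wider genes were called higher, against 73.1% of all genes, and 27 lower, against 18.2%. Of the 48 that were well above background on all GFP and LT7 arrays, 21 were so on both ST7 arrays, against 9444 of the 21015 genes so detected. Slc2a3, the high-affinity glucose transporter, gave 3.02 and 2.90 in GFP and 145 and 108 in ST7, at least 278-fold higher after the shift (adjusted p = 0.00010, limma). Without scaling too its ST7 signals were above the lowest well-detected signal of the GFP arrays, 10.8 and 8.33. It is the reverse of Slc2a1, which was bright in GFP and lost in ST7. Loxl2, a lysyl oxidase, and Ddit4 followed, at changes of 5.13 and 4.85, and without scaling these were 0.73 and 0.45. The lowest by the fit were Taldo1, the transaldolase of the pentose phosphate pathway, at least 203-fold lower than GFP, Lox, the lysyl oxidase that hypoxia induces, at least 101-fold lower, and P4hb, the partner subunit of P4ha1 and P4ha2, at least 123-fold lower. Against LT7 the lowest were again Taldo1, Lox and P4hb, and the highest were Slc2a3, Loxl2 and Stc2.

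Probes of the same gene gave different answers in ST7, so that each ST7 value above is that of a probe. Whether the RNA on the ST7 arrays came from mouse cells was not tested. Ldha was measured by a pair of probes that both read high in GFP and LT7. The brightest gave 10308 and 10259 in ST7, while the other gave 8.80 and 5.55 there, against 62722 and 61908 in GFP. In the same RNA the first changed by 2.53 on the log2 scale and the second was at least 381-fold lower than GFP (adjusted p = 1.7e-05, limma). Gapdh was measured by 4 probes, 3 of which have the same 60 bases. The 3 gave 560 to 632 in ST7 and were saturated in GFP, at least 5.07-fold lower in ST7, while the fourth gave the change of 3.60 stated above. Hk1, the hexokinase of most tissues, had 6 probes. The brightest fell from 5443 and 5491 in GFP to 4.71 and 3.14 in ST7, and another rose from 221 and 170 in GFP to 380 and 388 in ST7, higher also without scaling, by 0.99 on the log2 scale.

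Probes with more signal in ST7 than the other probes of their gene are shown here, to set beside a probe that read lower. The probes of Gapdh, Ldha and Hk1 printed whole have at least 1 reading frame without a stop codon. Of the repeated Gapdh probe, which has none, the last 30 bases are shown, with the hexamer AATAAA, the usual poly(A) signal near the end of a transcript, in capitals.
Gapdh, highest in ST7: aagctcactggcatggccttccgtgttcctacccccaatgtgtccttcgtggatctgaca
Gapdh, lower in ST7, last 30 bases: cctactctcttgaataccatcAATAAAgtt
Ldha, kept in ST7: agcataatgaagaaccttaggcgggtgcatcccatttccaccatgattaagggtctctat
Hk1, higher in ST7: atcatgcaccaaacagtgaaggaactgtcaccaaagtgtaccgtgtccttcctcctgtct

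Pgk1 showed the same within largely shared letters. Its 2 probes share 38 bases and both read between 41580 and 67949 in GFP and LT7. In ST7 the brightest gave 2298 and 2002, while the other gave 7.56 and 21.5. The 22 bases at the 3′ end that only the brighter probe holds are shown here.
Pgk1, bases of the brighter probe not shared: accattgtgcattgtagagggc
Aldoa was alike, with 2 probes that share a run of 27 bases, of which 1 read 1909 and 1764 on the ST7 arrays and the other 93.2 on average.

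**Figure D3:**
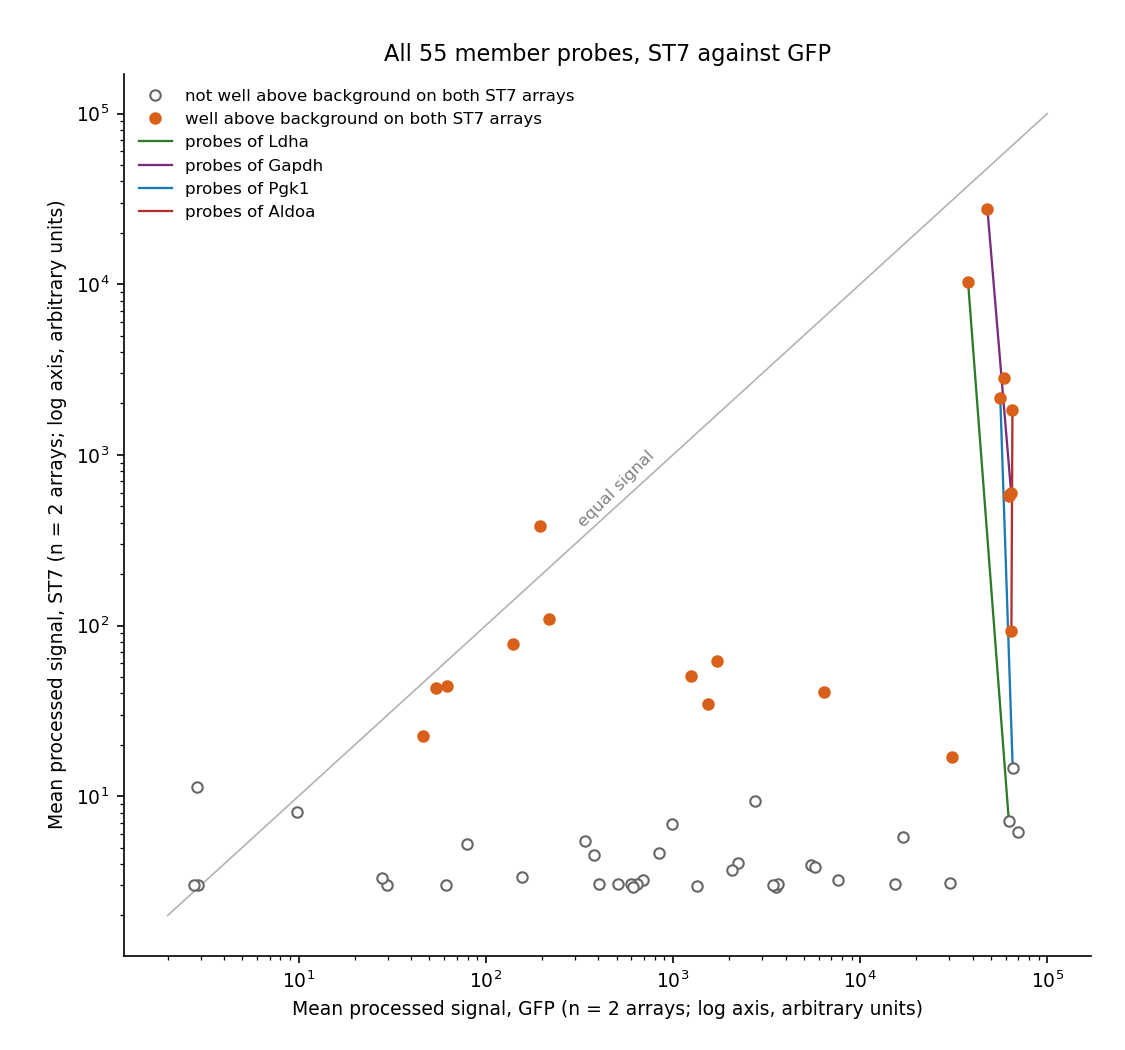
Mean processed signal of all 55 member probes in ST7 against GFP (n = 2 arrays each; both axes log, arbitrary units), filled where the probe was well above background on both ST7 arrays. Lines join the probes of Ldha, Gapdh, Pgk1 and Aldoa, which lie close together in GFP, where some are saturated, and far apart in ST7. The Ldha probes read 10308 and 10259 against 8.80 and 5.55 on the ST7 arrays.

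The same probes did not part in LT7. Over the 13 members with more than 1 probe well above background on all GFP and LT7 arrays, the median spread of the log2 change between probes of a gene was 0.15 in LT7 and 3.08 in ST7. It was over 1 for 0 of the 13 in LT7, against 4.94% of the 4712 genes with such probes, and for 10 of 13 in ST7, against 73.6%. A probe at background in ST7 gives only a limit, so these spreads are inexact. Where at least 1 probe of a gene was detected on both ST7 arrays, the spread was over 1 for 8 of 8 members, against 80.4% of 2618 genes, a count chosen after the values were seen. The 8 were Hk1, Ldha, Slc16a1, Pgk1, Gapdh, Aldoa, Bnip3l and Pfkp, and the sign differed between probes for Hk1, Ldha, Slc16a1 and Gapdh. Egln1 and P4ha1 had fitted spreads over 1, and Egln1 fitted values of both signs, with each probe at background in ST7, so these do not show that their probes disagree. The same holds for Car12, detected at 1 probe on 1 ST7 array. Pdk1, Pdk3 and Eno2 had each probe at background in ST7 and fitted spreads under 1. In LT7 the sign differed for Hk1, Pfkp and Pgk1, at Hk1 with a spread of 3.41 that came from a probe with 580 on LT7 replicate 2 and 7.54 to 12.1 elsewhere.

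**Figure D4:**
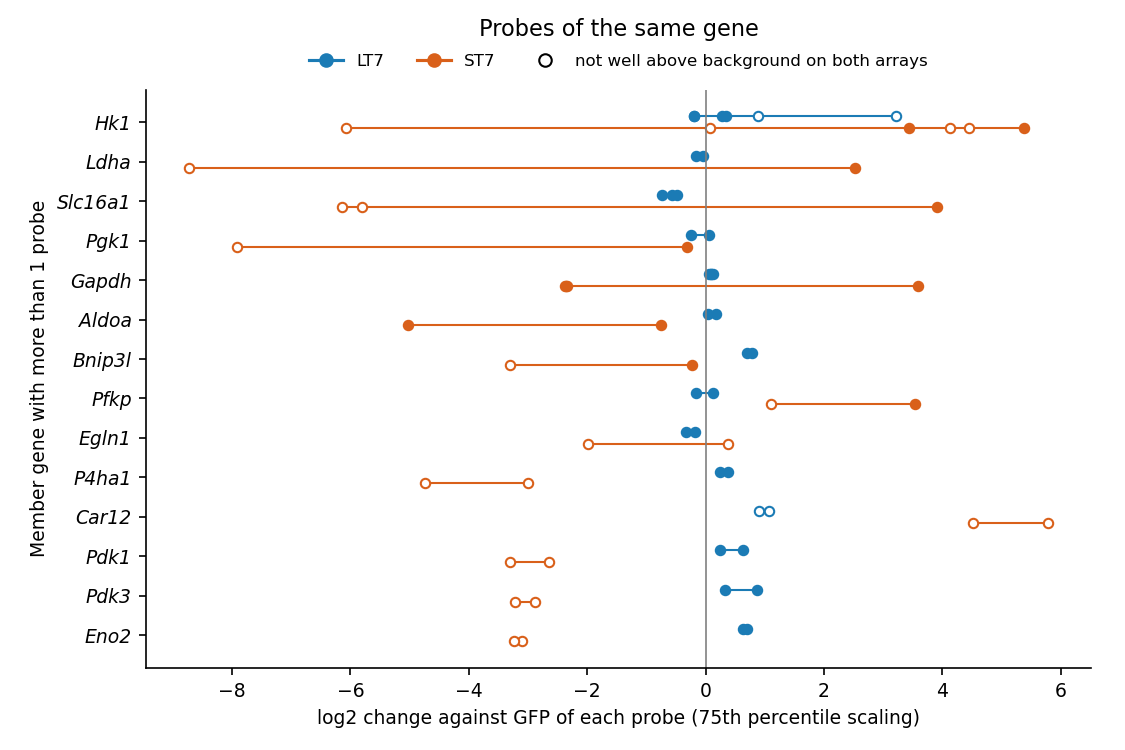
Log2 change against GFP of every probe of the 14 member genes with more than 1 probe, in LT7 (blue) and ST7 (orange), after the 75th percentile shift; filled points were detected on both arrays of the line. Open ST7 points are background readings and mark a limit, not an exact change. The ST7 points of Hk1, Ldha and Slc16a1 lie on both sides of 0, while the LT7 points lie close together except at Hk1.

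In all, 49 of the 55 member probes were well above background on all GFP and LT7 arrays, and 19 of these (38.8%) were so on both ST7 arrays, against 41.2% of the 26928 probes so detected. On neither ST7 array were 29. Among all such probes the share kept in ST7 was 28.2% where no reading frame was free of stop codons, 38.2% with 1 free frame and 52.2% with 2 or 3. Among the members these shares were 4 of 11, 8 of 23 and 7 of 15. The 4, and so also the 19 in all, count the repeated Gapdh probe 3 times. The overall share of member probes kept was near that of all probes so detected.

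ST7 against LT7 gave nearly the same picture as ST7 against GFP, with which it shares the ST7 arrays. Limma called 30 members (88.2%), against 91.3% of all genes, of which 24 were lower (70.6%), against 18.1%, and 6 higher (17.6%), against 73.2%. Of the 31 members detected on all GFP and LT7 arrays 24 were lower (77.4%), against 43% of genes so detected, and 4 higher (12.9%), against 40.8%. For probes lost in ST7 the direction again depended on how bright they were in LT7. The median change was -3.38, beside 3.63 over all genes and -0.13 over the detected genes. Relative to LT7, Gpi1 was at least 379-fold lower, Tpi1 at least 219-fold, Slc2a1 at least 90.3-fold and Hif1a at least 9.38-fold. Gapdh had a change of 3.51, Ldha of 2.69, Pfkp of 3.70, Car9 of 3.96 and Slc16a3 of 4.03, all at the brightest probe after the shift.

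Most of the members share a sequence feature in their promoters. The choice of genes drew on known HIF targets and read no promoter sequence. The core of the hypoxia response element was searched as ACGTG on both strands from 250 bases before to 50 after the start site, in RefSeq promoters of GRCm38.p6 that held 32 of the 34 members. At least 1 match was found for 22 members (68.8%), against 21.8% of 27025 genes, and for the second form of the core, GCGTG, for 20 (62.5%), against 35.2%. The 22 genes with ACGTG had a median change of -0.07 in LT7 and the 10 without it 0.22, and 8 of 22 and 4 of 10 kept a detected signal on both ST7 arrays. The 120 bases before a start site of Ldha and of Slc16a3, the genes with which lactate is made and exported, are shown with ACGTG in capitals on either strand (read as CACGT on the other). Both lie on the plus strand, at chr7:46845684-46845803 and chr11:120948947-120949066. The window of a second Ldha start site, not shown, held no ACGTG.
Ldha: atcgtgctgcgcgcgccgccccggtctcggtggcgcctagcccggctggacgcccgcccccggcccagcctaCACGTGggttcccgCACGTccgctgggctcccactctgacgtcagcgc
Slc16a3: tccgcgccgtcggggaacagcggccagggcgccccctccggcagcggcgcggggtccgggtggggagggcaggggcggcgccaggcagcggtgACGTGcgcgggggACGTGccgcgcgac
A match is a description of the letters and says nothing of binding in these cells.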

How the data were processed

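RNA of GFP, LT7 and ST7 cells, 2 samples each, was labelled with Cy3 and hybridized to 1-colour Agilent arrays on 1 slide. The authors deposited scanner output of Feature Extraction (10.5.1.1), with a background-subtracted processed intensity per spot, and a series matrix of log2 values after a percentile shift. Here outlier spots (19 to 141 per array) were left out, log2 of the deposited intensity was averaged per probe, and each array's 75th percentile was subtracted. All but 5 to 13 probes per array then matched the series matrix within 0.01, apart from a constant per array. Groups were compared with limma (3.58.1, R 4.3.3) over 6 arrays and 61307 probes, and Benjamini-Hochberg adjusted p-values under 0.05 were called. The fit was tested on simulated data. The members and all lists were chosen with earlier results of these data known. Every array's value is given for 15 members picked by role and for those with the largest changes. All 34 accessions matched a RefSeq table, with a newer symbol for 1. The number of arrays limits the precision. The fold rule of the methods gives 0.8 per replicate and 1 for the mean of replicates without naming a scale, and was read here as log2 ratios. Alternatives were other scalings, normexp, a filter on dim probes, only the groups compared, a replicate block, arrays left out, the series matrix, means over probes and that fold rule.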

Additional observations from a re-analysis of the deposited data

Results flagged for a closer look

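Spike-in RNAs, whose amounts the paper does not state, entered the results above only through the alternative spike-in scaling. On LT7 replicate 1 they were 4.11 higher on the log2 scale than the GFP mean (4 RNAs, range 3.74 to 4.31). On the other 5 arrays they lay within -0.16 to 0.09 on average. LT7 replicate 1 is the array that was scanned alone, and the part of the spike-ins in its member values was not tested.

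The change in ST7 differed from that in LT7, each against GFP, by the limma contrast of ST7 with LT7 for 30 of 34 members (88.2%), against 91.3% of all genes. Among those with values given on every array, ST7 was lower than LT7 by at least 379-fold for Gpi1, 219-fold for Tpi1, 82.8-fold for Pkm2, 90.3-fold for Slc2a1, 67.9-fold for P4ha2 and 9.38-fold for Hif1a, all at background in ST7. The log2 difference was 3.96 for Car9, 3.51 for Gapdh, 3.70 for Pfkp, 4.03 for Slc16a3 and 2.69 for Ldha.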

How the results depend on the processing

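The count of members called was 0 for LT7 against GFP, 27 to 30 for ST7 against GFP and 29 to 30 for ST7 against LT7 when each array was left out in turn, and the median log2 changes were then -0.02 to 0.19, -3.03 to -2.50 and -3.55 to -3.22. With reference gene scaling the count in LT7 was 1, where 19.3% of all probes were called, and with spike-in scaling the count in ST7 against LT7 was 18. The median in LT7 was -2.07 with spike-in scaling. The median in ST7 against GFP was -7.29 without scaling, -2.08 with normexp, -4.83 with the percentile over commonly detected probes, -3.30 with quantile normalization and -7.13 with spike-in scaling. Against LT7 it was -7.68, -2.21, -5.31, -3.70 and -5.45 in the same order, -3.63 with a filter on dim probes and -3.11 over the mean of all probes of a gene. With the replicate number as a block the counts were 0, 29 and 30. Deviations of samples with the same number correlated at 0.08, 0.04 and -0.02, so the numbers were not taken to pair the samples, and the block changed no call of a member in ST7 or LT7. Over all probes, calls in LT7 against GFP went from 108 to 0 with the block and to 0 without either GFP array.

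Single genes changed sign in some settings, and the cause was not tested. In LT7 with spike-in scaling, Pdk3 was at -1.30, Ndrg1 at -1.38, Bnip3l at -1.38, P4ha2 at -1.62, Hif1a at -1.98 and Gapdh at -2.08. Gapdh in LT7 was at -0.011 without scaling, at -0.020 with normexp, and between -0.10 and 0.28 with arrays left out, and Hif1a between -0.10 and 0.48. In ST7 against GFP without scaling and with spike-in scaling, Car9 was at -0.18 and -0.017, Gapdh at -0.80 and -0.64, Pfkp at -0.86 and -0.70, Slc16a3 at -0.86 and -0.70, and Ldha at -1.87 and -1.71. Over the mean of all probes Gapdh was at -0.87 and Ldha at -3.10. Saturated probes (Aldoa, Gpi1, 3 of Gapdh, 1 of Pgk1) understate any excess of GFP and LT7, and probes at background in ST7 give only limits.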
